A study of Homo sapiens with 4 samples.

Results

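The AP-1 genes FOS, FOSB, FOSL1, FOSL2, JUN, JUNB and JUND and the zinc finger gene EGR1 were taken by gene symbol from an RNA-Seq data set of MDA-MB-231 cells. They are 8 of 35993 genes in the table, and 8 of 8 passed a minimum mean count of 10, as did 16599 genes in all. MDA-MB-231 is a human triple-negative breast cancer cell line with a mesenchymal shape. The cells carried CTGF siRNA (siCTGF) or control siRNA (siControl) and were either treated with kahweol, a coffee diterpene, at 50 µM for 48 h in serum-free medium or left untreated. There was 1 library per condition: siCTGF with kahweol, siControl with kahweol, siCTGF untreated and siControl untreated. All 4 groups shared the cell line and the transfection. The siCTGF arm rested on 1 siRNA sequence, so an effect of CTGF loss and an effect of that siRNA cannot be told apart. No sequence is given for the control siRNA. The kahweol stock was made in DMSO and no vehicle is named for the untreated cells, so kahweol and its solvent cannot be told apart either. Per the study's methods, transfected cells of either arm were moved to medium without serum before kahweol was added. Whether untreated cells stayed in that medium until harvest is not stated, and the methods give no harvest time for them. An effect of kahweol and one of a difference in medium or harvest time therefore cannot be told apart.

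AP-1 is a dimer of leucine zipper proteins. The JUN proteins pair with each other or with FOS proteins, and FOS proteins bind DNA only in such pairs. FOS, FOSB, JUN, JUNB and EGR1 are textbook immediate early genes, transcribed within minutes of a stimulus through serum response factor, ternary complex factors and CREB, which act downstream of the MAP kinases, and their mRNAs are short-lived. FOSL1 (FRA-1) is known to be abundant in mesenchymal breast cancer cell lines.

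Total counts ran between 44781516 and 59129784 per library. CTGF mRNA (gene symbol CCN2), the siRNA target, was at 31.8 CPM in siCTGF and 186 CPM in siControl cells with kahweol, and at 63.6 CPM in siCTGF and 159 CPM in siControl cells without it (CPM, counts scaled to library size with TMM). Of 5 markers meant to be high in this line, VIM was at 2549 to 3255 CPM, MSN at 631 to 704 and CD44 at 265 to 356. CAV1, at 142.5 to 326.9 CPM, and SPARC, at only 7.75 to 33.8 CPM, fell with kahweol. Of 4 genes meant to be low, ESR1 had at most 6 counts and PGR at most 37, whereas CDH1 was at 6.62 to 10.4 CPM and EPCAM at 21.7 to 29.5 CPM. Of 8 markers of other cell types, CD3E, DCN, LUM and PTPRC had at most 7 counts in any library. PECAM1 had at most 26 counts. CD68 was at 40.6 to 60.6 CPM, above SPARC in every library, PDGFRB at 9.38 to 12.4 CPM and COL1A1 at 3.23 to 5.21 CPM. The mitochondrial rRNA genes held 6.01% and 4.33% of counts in the siCTGF and siControl libraries with kahweol, and 3.11% and 3.94% in the untreated ones. The 10 most abundant genes held 12.9% and 10.8% with kahweol, and 8.25% and 8.54% without it. These shares moved with kahweol in both siRNA backgrounds, and their part in the results below was not tested. In bulk RNA, more mRNA per cell and more cells that make it cannot be told apart.

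Promoters are shown for the 4 members with the highest log2 fold change with kahweol over the 4 libraries. The motif matches in each can be read in place. Kahweol was sampled at 48 h only, so no early response was observed. RefSeq (GRCh38.p14) gave a window of 250 bases before and 50 bases from the transcription start on for 7 of the 8 genes. Capitals mark matches on either strand to the CArG box (bound by serum response factor), TGACGTCA (CRE), TGANTCA (AP-1 site), GCGNGGGCG (EGR1 site), CCGGAA (the ETS core) and, for the TATA box, TATAAA. No match overlapped another. Positions count from 1 at the start site, with -1 the base before it, and name the first base of a match.
EGR1, chr5:138465229-138465528, plus strand: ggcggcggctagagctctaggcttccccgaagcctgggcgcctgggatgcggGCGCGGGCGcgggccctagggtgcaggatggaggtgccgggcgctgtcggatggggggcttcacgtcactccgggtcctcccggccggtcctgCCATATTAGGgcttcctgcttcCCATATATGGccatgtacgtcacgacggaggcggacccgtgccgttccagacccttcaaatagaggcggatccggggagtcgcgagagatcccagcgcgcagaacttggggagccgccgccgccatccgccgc
FOS, chr14:75278578-75278877, plus strand: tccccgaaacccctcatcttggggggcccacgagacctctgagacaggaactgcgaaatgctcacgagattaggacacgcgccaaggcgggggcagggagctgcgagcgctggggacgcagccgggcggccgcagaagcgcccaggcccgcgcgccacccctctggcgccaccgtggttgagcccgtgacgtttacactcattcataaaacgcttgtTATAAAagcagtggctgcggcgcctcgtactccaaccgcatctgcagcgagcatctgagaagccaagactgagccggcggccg
FOSB, chr19:45467746-45468045, plus strand: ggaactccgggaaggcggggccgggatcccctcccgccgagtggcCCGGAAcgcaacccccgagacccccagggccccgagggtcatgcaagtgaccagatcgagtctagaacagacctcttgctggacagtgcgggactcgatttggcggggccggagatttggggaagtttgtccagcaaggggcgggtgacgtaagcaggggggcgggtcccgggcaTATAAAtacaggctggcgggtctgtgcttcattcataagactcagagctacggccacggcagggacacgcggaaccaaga
JUNB, chr19:12791236-12791535, plus strand: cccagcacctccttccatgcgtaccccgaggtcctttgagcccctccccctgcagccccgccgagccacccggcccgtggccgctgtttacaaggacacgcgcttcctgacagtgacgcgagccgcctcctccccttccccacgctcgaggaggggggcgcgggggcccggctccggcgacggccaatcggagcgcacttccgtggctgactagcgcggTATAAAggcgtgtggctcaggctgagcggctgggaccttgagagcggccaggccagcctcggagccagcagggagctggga

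The EGR1 window held 2 CArG boxes, at -105 and -83, and an EGR1 site at -198. A CArG box was found in 1.29% and an EGR1 site in 9.43% of 35116 windows of the same length. The TATA box lay at -33 in FOS, -30 in FOSB and -31 in JUNB, and was present in 11.5% of all windows. FOSB also had an ETS core at -205 (17.2% of windows). Of the other members, FOSL2 had an AP-1 site at 5 (7.71% of windows), JUND had a CRE at -200 (1.85% of windows), and the JUN window held none of the 6 motifs. A match describes letters in this window only.

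By level per length, in TPM (counts corrected for transcript length and library size, as the authors computed them), FOSL1 was the highest of the 8 genes and FOSB the lowest in all 4 libraries. FOSL1 was at 156 TPM in siCTGF and 160 TPM in siControl cells with kahweol, and at 124 TPM in both untreated libraries. FOSB was at 4.15 and 2.65 TPM with kahweol in siCTGF and siControl cells, and at 0.782 and 0.594 TPM in the untreated ones. In both untreated libraries the order was FOSL1, JUN, FOSL2, JUNB, JUND, FOS, EGR1 and FOSB. With kahweol the order began with FOSL1, JUNB and JUN in both libraries. FOS came next in siCTGF cells with kahweol, at 40.9 TPM, and after FOSL2 in siControl cells with kahweol, at 33.4 TPM. Among all genes in the table, FOS ranked 3053 and 3865 in those 2 libraries and 10283 and 10603 in the untreated siCTGF and siControl libraries. Neighbours whose 95% counting intervals overlapped were FOS and FOSL2 in siCTGF cells with kahweol, JUNB and JUN in siControl cells with kahweol, and JUN and FOSL2 in untreated siCTGF cells. These intervals, and those below, cover counting error only, since no condition had a replicate.

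**Figure D1:**
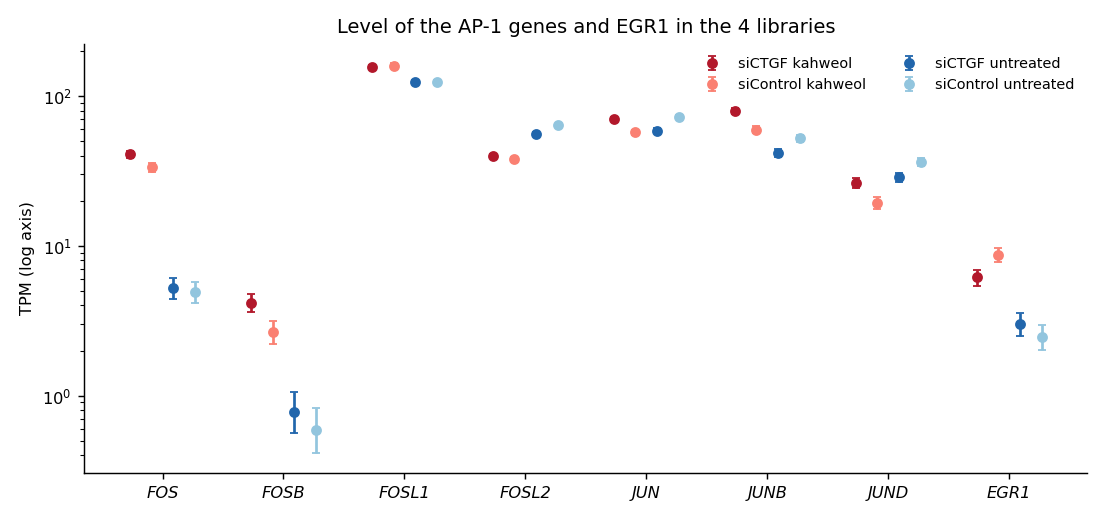
Level of each gene in TPM on a log axis in the 4 libraries, with bars for the 95% counting interval. FOS was at 40.9 and 33.4 TPM with kahweol and at 5.23 and 4.89 TPM without it, while FOSL1 stayed between 124 and 160 TPM.

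Kahweol moved the AP-1 genes unequally. FOS, FOSB and EGR1 were several-fold higher in both siRNA backgrounds, FOSL1 and JUNB rose less, FOSL2 fell, and JUN and JUND did not pass the test. In siCTGF cells 6 of the 8 genes exceeded a fold of 1.3, against 28.4% of all genes, and 0 were under 0.7, against 24.2%. In siControl cells 5 exceeded a fold of 1.3, against 28.1% of all genes, and 2 were under 0.7, against 26.3%. The median log2 fold change of the 8 genes was 0.89 in siCTGF and 0.51 in siControl cells, and that of all genes -0.0034 and -0.018. Over the 4 libraries, 2 with kahweol against 2 without and with the siRNA as a covariate, edgeR's quasi-likelihood test called 5 of the 8 higher and 1 lower at an adjusted p under 0.05. It called 46.6% of all genes, 3805 higher and 3922 lower, so a call alone sets no gene apart. This fit had 1 residual degree of freedom and took any difference between the siRNA backgrounds as noise. The fold counts depended on the scale: with log2(TPM + 0.1), 2966 genes exceeded 1.3 and 5745 were under 0.7 in siCTGF cells (4713 and 4017 with TMM), and 2975 and 5815 in siControl cells (4665 and 4365 with TMM). With total counts the numbers were 3634 and 5034 in siCTGF cells and 3646 and 5241 in siControl cells. On the TPM scale 4 of the 8 genes exceeded 1.3 in siCTGF and 3 in siControl cells. The median of all genes shifted by -0.25 in siCTGF and -0.22 in siControl cells on the log2(TPM + 0.1) scale.

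FOS (gene ID 2353, chr14:75745531-75748933 in GRCh37, plus strand), the founding FOS protein and a strong activator when paired with JUN, showed the highest fold change of the family. It had 2310 counts (52.0 CPM) in siCTGF cells with kahweol and 301 counts (5.56 CPM) in untreated siCTGF cells. In siControl cells it had 1727 counts (40.0 CPM) with kahweol and 312 counts (4.99 CPM) without it. Both kahweol libraries lay far above both untreated ones, and neither pair overlapped. The log2 fold change was 3.22 in siCTGF cells (95% counting interval 2.98 to 3.48) and 2.99 in siControl cells (2.75 to 3.26). By fold change FOS ranked 84 and 62 of 16599 genes in these comparisons. Over the 4 libraries it rose by 3.11 on the log2 scale (SE 0.12, edgeR adjusted p = 1.66e-05).

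FOSB (gene ID 2354, chr19:45971254-45978437, plus strand), a FOS relative that also gives a truncated long-lived form, moved in the same way at a lower level. It was at 9.42 CPM in siCTGF cells with kahweol and 1.50 CPM in untreated siCTGF cells, and at 5.70 CPM in siControl cells with kahweol and 1.09 CPM in untreated siControl cells. The 4 counts behind these values were 418, 81, 246 and 68. The log2 fold change with kahweol was 2.62 in siCTGF (2.16 to 3.18) and 2.35 in siControl cells (1.83 to 2.98), the widest intervals of the FOS family. In the fit over 4 libraries FOSB rose by 2.52 (SE 0.26, edgeR adjusted p = 0.000245).

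FOSL1 (gene ID 8061, chr11:65659520-65667997, minus strand), which lacks the FOS transactivation domain, was already the most abundant member in TPM without kahweol. In CPM, which is not corrected for length, FOSL2 was above it in both untreated libraries. It was at 159 CPM in siCTGF and 154 CPM in siControl cells with kahweol, and at 106 and 102 CPM in the untreated siCTGF and siControl libraries. The log2 fold changes of 0.58 (0.51 to 0.66) in siCTGF and 0.60 (0.53 to 0.67) in siControl cells lay within each other's intervals. On the log2(TPM + 1) scale they were 0.32 and 0.36, under the 1.3-fold mark. In that fit FOSL1 rose by 0.59 (SE 0.08, edgeR adjusted p = 0.000831).

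FOSL2 (FRA-2, gene ID 2355, chr2:28615725-28640184, plus strand), the other FOS relative without that domain, went the opposite way. It was at 161 CPM in siCTGF and 145 CPM in siControl cells with kahweol, and at 190 and 209 CPM in the untreated siCTGF and siControl libraries. Both kahweol libraries were thus below both untreated ones. The log2 fold change was -0.24 (-0.30 to -0.17) in siCTGF and -0.52 (-0.58 to -0.46) in siControl cells, the second just under the 0.7-fold mark at a fold of 0.696. FOSL2 fell by 0.38 (edgeR adjusted p = 0.0109). The start of FOSL2 overlaps the lncRNA FLJ31356 on the opposite strand, and the strand setting of the counting is not given in the sources used here. FLJ31356 had a mean count of 3.75, against 9183 for FOSL2.

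**Figure D2:**
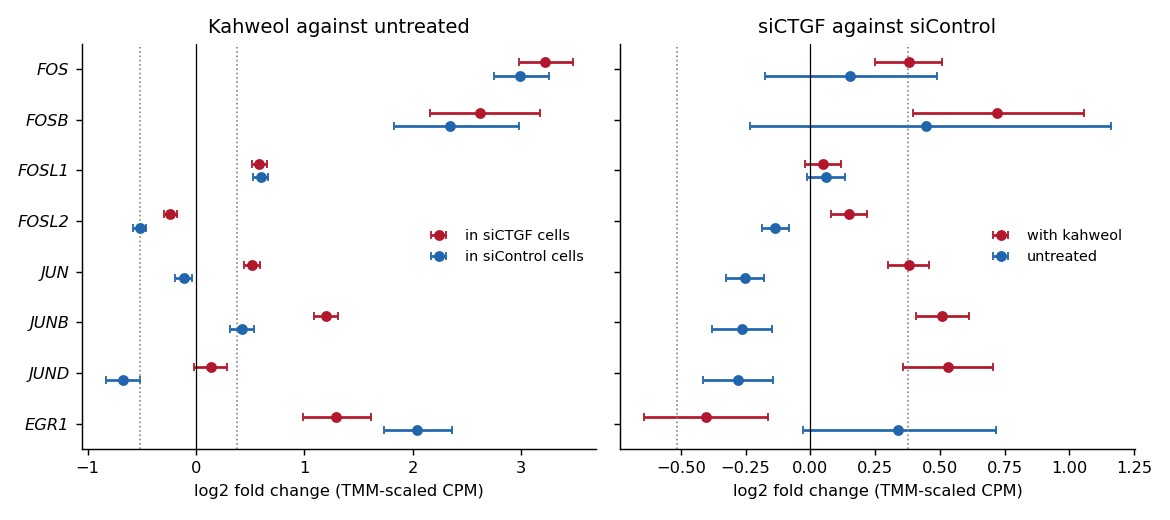
Log2 fold changes of TMM-scaled CPM for kahweol against untreated (left) and siCTGF against siControl (right), each between 2 single libraries. Bars are 95% counting intervals and dotted lines mark folds of 1.3 and 0.7. FOS, FOSB and EGR1 stand apart on the left (1.29 to 3.22), and JUN, JUNB and JUND lie on opposite sides of 0 on the right.

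JUNB (gene ID 3726, chr19:12902300-12904129, plus strand), which often opposes JUN at growth genes, was the only JUN gene higher with kahweol in both siRNA backgrounds. It was at 88.5 CPM in siCTGF cells with kahweol and 38.6 CPM in untreated siCTGF cells, and at 62.1 CPM in siControl cells with kahweol and 46.3 CPM in untreated siControl cells. Its log2 fold change was 1.20 (1.09 to 1.31) in siCTGF and 0.42 (0.32 to 0.53) in siControl cells, and these intervals did not overlap. JUNB rose by 0.81 over the 4 libraries (SE 0.17, edgeR adjusted p = 0.00619). On the log2(TPM + 1) scale its change in siControl cells was 0.19, not past a fold of 1.3.

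JUN (gene ID 3725, chr1:59246463-59249719, minus strand), the main partner of the FOS proteins and a substrate of JNK, was at 139 CPM in siCTGF and 106 CPM in siControl cells with kahweol, and at 96.9 CPM in siCTGF and 115 CPM in siControl cells without it. Kahweol and untreated values overlapped, with untreated siControl above siControl with kahweol. The JUN log2 fold change was 0.52 (0.44 to 0.59) in siCTGF and -0.11 (-0.19 to -0.039) in siControl cells. The test over 4 libraries gave 0.20 (SE 0.14, edgeR adjusted p = 0.287).

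JUND (gene ID 3727, chr19:18390504-18392432, minus strand), the JUN gene that is expressed most steadily in resting cells, was at 30.7 CPM in siCTGF and 21.2 CPM in siControl cells with kahweol. Without kahweol it was at 27.9 CPM in siCTGF and 33.9 CPM in siControl cells. The siControl library with kahweol was the low one of the 4. JUND had a log2 fold change of 0.14 (-0.015 to 0.29) in siCTGF and -0.67 (-0.84 to -0.51) in siControl cells, and the siCTGF value turned to -0.12 with log2(TPM + 0.1) and -0.016 with total counts. The JUND change over the 4 libraries was -0.27 (SE 0.18, edgeR adjusted p = 0.255).

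EGR1 (gene ID 1958, chr5:137801168-137804992, plus strand), a zinc finger activator of growth factor genes and of its own corepressor NAB2, had 519 counts (11.7 CPM) in siCTGF cells with kahweol and 257 counts (4.75 CPM) in untreated siCTGF cells. In siControl cells it had 668 counts (15.5 CPM) with kahweol and 234 counts (3.75 CPM) without it. It was the only one of the 5 genes called higher with the siControl library clearly on top among the kahweol libraries, as FOSL1 was at 159 and 154 CPM but at 156 and 160 TPM in siCTGF and siControl cells with kahweol. The log2 fold change was 1.29 (0.99 to 1.62) in siCTGF and 2.04 (1.74 to 2.36) in siControl cells. EGR1 rose by 1.67 over the 4 libraries (SE 0.22, edgeR adjusted p = 0.000642). These 6 calls held with each of 6 other settings of the fit, of which the highest adjusted p was 0.0184, for FOSL2. JUN and JUND were called with none of them.

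The make-up of the FOS family, as shares of its summed TPM, changed with these levels. FOS held 17.0% and 14.3% with kahweol in siCTGF and siControl cells, and 2.80% and 2.52% in the untreated ones. FOSL2 held 16.5% and 16.3% with kahweol, and 30.1% and 33.0% without it. FOSL1 held the most in every library, 64.8% and 68.3% with kahweol and 66.7% and 64.1% without it. FOSB stayed at 1.72% or less. Within the JUN family, JUNB held 45.3% and 43.7% with kahweol in siCTGF and siControl cells, and 32.3% in both untreated libraries. JUND held 14.9% and 14.2% with kahweol, and 22.1% and 22.4% without it. The share of JUN was 39.8% and 42.1% with kahweol and 45.6% and 45.2% without it, so JUNB was above JUN with kahweol in siCTGF cells, while in siControl cells their counting intervals overlapped. These are mRNA shares, and no protein or dimer was measured.

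**Figure D3:**
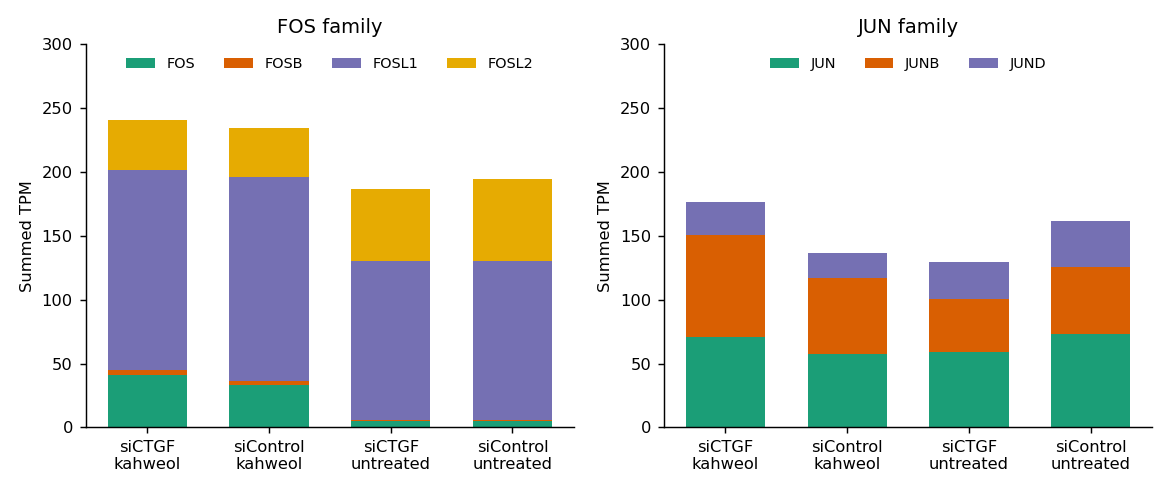
Summed TPM of the FOS family (left) and JUN family (right) in each library, stacked by gene. The FOS segment is 40.9 and 33.4 TPM with kahweol and 5.23 and 4.89 TPM without it, and FOSL1 is the thickest segment in every bar.

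The comparison of siCTGF with siControl asked whether CTGF knockdown alone, or under kahweol, changed these genes. With kahweol 5 of the 8 genes exceeded a fold of 1.3 in siCTGF against siControl cells, beside 14.7% of all genes, and 0 were under 0.7, beside 7.83%. Without kahweol 1 gene (FOSB) exceeded 1.3, beside 9.63% of all genes, and 0 were under 0.7, beside 8.99%. The 5 genes with kahweol were FOSB at a log2 fold change of 0.72 (0.40 to 1.06), JUND at 0.53 (0.36 to 0.71), JUNB at 0.51 (0.41 to 0.61), JUN at 0.38 (0.30 to 0.46) and FOS at 0.38 (0.25 to 0.51). JUN and FOS stood just over the mark, and the count of genes past it was 3 with DESeq2 size factors, total counts or TPM. EGR1 was lower, at -0.40 (-0.64 to -0.17). FOSL1 and FOSL2 lay at 0.05 and 0.15. With total counts 2205 of all genes exceeded 1.3 and 1430 were under 0.7 in this comparison, and with log2(TPM + 0.1) 1861 and 1516, against 2441 and 1299 with TMM.

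In untreated cells JUN, JUNB and JUND were each lower in siCTGF than in siControl cells, at log2 fold changes of -0.25 (-0.32 to -0.18), -0.26 (-0.38 to -0.15) and -0.28 (-0.42 to -0.14). FOS (0.15, -0.18 to 0.49), FOSB (0.45, -0.23 to 1.16), FOSL1 (0.06, -0.013 to 0.13) and EGR1 (0.34, -0.030 to 0.72) had counting intervals that included 0. FOSL2 was at -0.14 (-0.19 to -0.083). Over the 4 libraries, 2 siCTGF against 2 siControl with kahweol as a covariate, edgeR called 0 of the 8 genes and 0.127% of all genes. DESeq2 and limma-voom also called 0 of the 8. At an unadjusted p under 0.05 edgeR gave 2, FOS (0.28, adjusted p = 0.456) and FOSB (0.61, adjusted p = 0.483), and DESeq2 gave 0. Of all 16599 genes, edgeR gave 851 higher and 794 lower at this unadjusted cut, and DESeq2 gave 500 and 465. CTGF itself had an edgeR adjusted p of 0.0553 in this fit, so it missed the threshold as well. Its adjusted p was 0.178 with DESeq2 and 0.0144 with limma-voom, so limma-voom called it.

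The kahweol log2 fold change in siCTGF minus that in siControl cells was 0.81 for JUND, 0.77 for JUNB and 0.63 for JUN. Of the 16599 genes, 1445, 1515 and 1893 had a difference at least as high. The difference for EGR1 was -0.74, and 996 genes were at or below it. FOSL2 (0.29), FOSB (0.27), FOS (0.22) and FOSL1 (-0.01) were nearer to the median of all genes, 0.0042. These differences rest on 1 library per condition and have no test.

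The other genes of the pathway were read from 8 lists that together held 119 measured genes. Of these, 45 exceeded a fold of 1.3 with kahweol in both siRNA backgrounds and 11 were under 0.7 in both. Among all 16599 genes 20.7% and 18.2% did so. The edgeR fit called 51 of the 119 higher (42.9%) and 20 lower (16.8%), against 22.9% and 23.6% of all genes, and the list counts below are to be read against these shares.

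Among other leucine zipper partners of AP-1, 10 of 12 were measured and edgeR called 5 higher and 0 lower with kahweol. ATF3, a stress-induced repressor and activator, was at 30.7 and 26.1 CPM with kahweol in siCTGF and siControl cells, and at 8.71 and 7.73 CPM without it (log2 fold changes 1.82 and 1.75). The small MAF proteins, which have no activation domain and pair with NRF2, were represented by MAFG (1.69 in siCTGF and 1.10 in siControl cells), MAFF (0.95 and 0.69) and MAFK (0.85 and -0.0085), of which MAFK was not called (edgeR adjusted p = 0.0920). ATF2, a JUN partner phosphorylated by p38 and JNK, was at 0.80 and 0.66. The median log2 fold change of the 10 genes was 0.71 in siCTGF and 0.25 in siControl cells.

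Of the EGR and NAB genes, 5 of 5 were measured and 1 was called higher. That gene, EGR3, had 36 counts in siCTGF and 25 counts in siControl cells with kahweol, and 4 and 6 counts in the untreated ones, and was named after its values were seen. NAB2, a corepressor induced by EGR1, was at 39.4 and 40.4 CPM with kahweol and at 39.0 and 40.7 CPM without it. Its log2 fold changes of 0.016 and -0.010 had counting intervals within 0.15 of 0 on either side.

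Among the other immediate early genes, 32 of 32 were measured, 23 were called higher with kahweol and 1 lower. In siCTGF cells 24 exceeded 1.3 and 2 were under 0.7, and in siControl cells 23 and 1. Their median was 0.73 and 0.58. Among those with the highest change in both were NR4A3, an orphan nuclear receptor (log2 fold changes 2.38 in siCTGF and 2.86 in siControl cells), PPP1R15A, a phosphatase subunit that reverses eIF2 alpha phosphorylation (2.68 and 2.24), ARC, known as a synaptic immediate early gene (2.32 and 1.70), and SIK1, a salt-inducible kinase (1.96 and 1.66). PPP1R15A was at 589 and 397 CPM with kahweol and 92.1 and 83.8 CPM without it. NR4A3 had few counts, 110 and 86 with kahweol in siCTGF and siControl cells and 24 and 15 without it. PHLDA1 was the gene called lower, at -0.70 in siCTGF and -1.05 in siControl cells. CCN1, a relative of CTGF named here after its values were seen, was at -1.02 in siCTGF and 0.0087 in siControl cells.

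**Figure D4:**
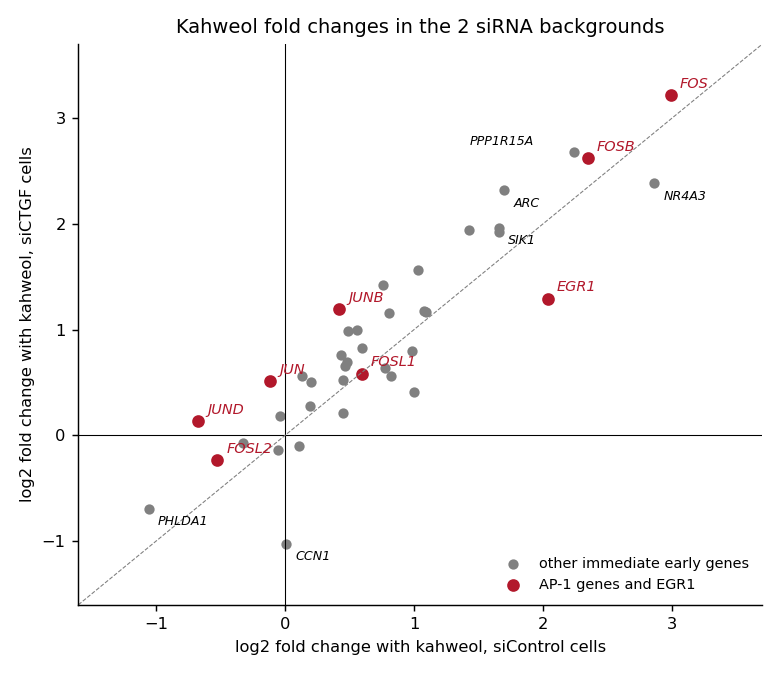
Log2 fold change with kahweol in siCTGF cells (vertical) against siControl cells (horizontal) for the 8 genes (red) and 32 other immediate early genes (gray). The dashed line marks equal change, with FOS at 3.22 and 2.99 in the upper right, EGR1 below the line and JUN, JUNB and JUND above it.

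Of 9 SRF, ternary complex and CREB factors, edgeR called 3 higher and 2 lower with kahweol. CREM, which includes the repressor ICER, was higher at 0.88 in siCTGF and 0.92 in siControl cells, and the SRF coactivator MRTFB was lower at -1.10 and -0.60. SRF itself was at 80.4 and 66.7 CPM with kahweol and 58.5 and 52.9 CPM without it. Of 21 measured MAP kinase cascade genes, 1 was called higher and 7 lower, together a smaller share than the 46.6% of all genes. The shares of all genes by direction were 22.9% higher and 23.6% lower. MAP2K4, a kinase of JNK, was at 0.44 and 0.64. Among the lower genes were MAP2K6, a kinase of p38 (-1.40 in siCTGF and -2.65 in siControl cells), the p38 genes MAPK11 (-1.37 and -1.68) and MAPK12 (-0.76 and -0.81), and the kinase RPS6KA2 (-0.63 and -0.54). MAP2K6 had only 26 and 12 counts with kahweol in siCTGF and siControl cells, and 87 and 122 without it. MAP2K3, another kinase of p38 on the list, was at 0.04 and 0.40 and was not called (edgeR adjusted p = 0.150). MAPK14 (p38 alpha) was at 178 and 166 CPM with kahweol and 173 and 162 CPM without it. These are mRNA levels, and kinase activity was not measured in these libraries.

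Among 10 genes of AP-1 mRNA decay and protein turnover, 4 were called higher with kahweol and 0 lower, together near the 46.6% of all genes. By direction, 22.9% of all genes were called higher and 23.6% lower. ZFP36 (tristetraprolin), which binds AU-rich elements and destabilizes FOS mRNA, was at 11.9 and 8.34 CPM with kahweol and at 5.27 and 3.92 CPM without it (log2 fold changes 1.17 and 1.08). ZFP36L2 was at 0.65 and 1.08. FBXW7, a ubiquitin ligase subunit that targets JUN, was at 1.11 and 0.80. The list median was 0.07 in siCTGF and 0.10 in siControl cells, and both were negative with TPM or total counts.

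Genes known as AP-1 targets moved both ways. Of 24 of 25 that were measured, 11 were called higher and 7 lower with kahweol, and the list median was 0.20 in siCTGF and 0.18 in siControl cells, with a negative sign for both on the TPM scale. HMOX1 (heme oxygenase, also a target of NRF2) was at 1030 and 582 CPM with kahweol and at 44.3 and 34.3 CPM without it, log2 fold changes of 4.54 and 4.08. SPP1 (osteopontin, 1.65 and 2.06), the collagenase MMP1 (1.05 and 1.28) and the chemokine CXCL8 (0.83 and 1.03) were higher. SPP1 had few counts, 130 and 109 with kahweol in siCTGF and siControl cells and 49 and 36 without it. The protease PLAU (urokinase) was at 137 and 149 CPM with kahweol and at 362 and 465 CPM without it (-1.40 and -1.65). Cyclin D1 (CCND1, -0.83 and -0.80) and the cytokine CSF2 (-1.15 and -0.74) were lower too. Of 11 EGR1 targets, 4 were called higher and 3 lower. ICAM1 (1.28 and 1.29), GDF15 (0.77 and 0.75) and PDGFA (0.87 and 0.62) were higher, and the growth factors PDGFB (-1.59 and -1.61) and FGF2 (-1.06 and -1.26) were lower. The list median was 0.016 in siCTGF and 0.013 in siControl cells, and both were negative with TPM or total counts.

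**Figure D5:**
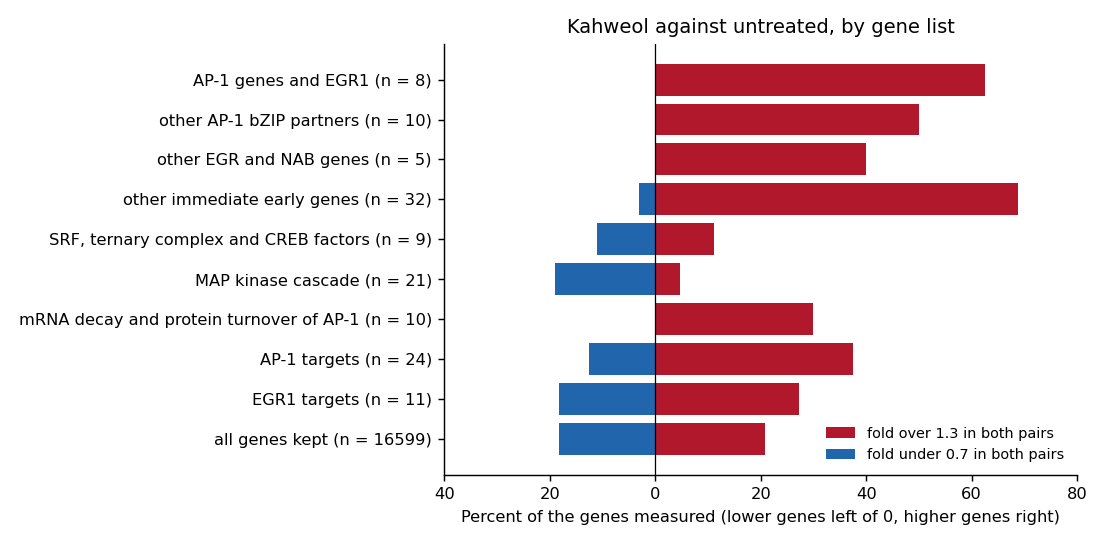
Percent of the measured genes of each list that exceeded a fold of 1.3 (red, right) or were under 0.7 (blue, left) with kahweol in both siRNA backgrounds, beside all genes kept. The 8 genes stand at 62.5% and 0%, the other immediate early genes at 68.8% and 3.13%, and all genes at 20.7% and 18.2%.

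With siCTGF few genes of these lists passed the fold marks. Of the 119 genes, 6 exceeded a fold of 1.3 and 2 were under 0.7 both with and without kahweol, where 3.25% and 2.24% of all genes did so. DESeq2 called 2 of the 119 higher (1.68%) and 4 lower (3.36%), against 0.41% and 0.361% of all genes. The edgeR fit called 0 higher and 1 lower (0.84%), against 0.0663% and 0.0602% of all genes. At an unadjusted p under 0.05 edgeR gave 11 and 13 of the 119, and 851 and 794 of all 16599 genes. The 1 gene called was cyclin D1, at 208 CPM in siCTGF and 390 CPM in siControl cells with kahweol, and at 369 CPM in siCTGF and 682 CPM in siControl cells without it. Its log2 fold changes were -0.91 and -0.88 (edgeR adjusted p = 0.00624). ZFP36 (0.52 with kahweol and 0.42 without it), MMP3 (1.28 and 0.54) and MMP1 (0.42 and 0.64) exceeded the fold mark in both pairs, and BATF2 (-0.77 and -0.63) was under it, but none of these 4 was called by edgeR.

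For the 4 members with a span of at least 1 on the log2 scale, the protein-coding genes of most similar pattern were sought among 11746 genes, by the Euclidean distance of centred log2 CPM over the 4 libraries. FOS was closest to SLC3A2, the heavy chain of several amino acid transporters (distance 0.20), whose log2 fold changes with kahweol were 2.98 in siCTGF and 2.92 in siControl cells, then to NEB and PELI2. FOSB was closest to PPP1R15A (0.25), then to FTH1, the ferritin heavy chain, whose reads can be shared with near-identical pseudogene copies, and to ZNF844. JUNB was closest to FOXO4, a forkhead factor (0.03), then to TRIM39 and BLOC1S3. FOXO4 had log2 fold changes of 1.16 in siCTGF and 0.45 in siControl cells. EGR1 was closest to ARHGAP20 (0.22), ZNF569 and ADAMTS1. A distance over 4 single libraries describes a shared pattern in these libraries alone.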

How the data were processed

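The submitters' processing notes name FastQC 0.11.7, Trimmomatic 0.38, HISAT2 2.1.0, Bowtie2 2.3.4.1, StringTie 2.1.3b and the build GRCh37.p13. The estimated counts of reads per gene were deposited by the authors as whole numbers without normalization. FPKM, TPM and coverage were computed by the authors with StringTie, and TPM was used here for levels per length. Coverage served only to estimate the bases per count, 104 to 106. A count was therefore taken as 1 read, and the 95% Clopper-Pearson counting intervals take 2 reads as 1 fragment. FPKM was used only to check that the tables matched.

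TMM scaling was done in R 4.3.3 with edgeR 4.0.16. Genes under a mean count of 10 were left out. Log2 fold changes of CPM (prior count 2) were taken between single libraries, with folds over 1.3 or under 0.7 counted, the study's fold thresholds without its p-value filter. The fits over 4 libraries were quasi-likelihood tests in edgeR, adjusted over 16599 genes by Benjamini-Hochberg. A run on simulated data had few changed genes and no difference between the siRNA backgrounds, so it does not cover data like these. The fits measure the spread between these libraries only. Alternatives were DESeq2 1.42.0, limma-voom 3.58.1, no covariate, other scalings, filters and prior counts. Motifs were searched in Python 3.11.15.

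The members, lists and tests were chosen with earlier results of these data known. Lists came from textbook knowledge and share some genes. Named list genes are up to 4 per direction past the same fold mark in both pairs (mean count 50 or more), ordered by whichever of their log2 fold changes was nearer 0, and the 3 nearest genes of each member (mean count of at least 100). CCN1, EGR3, SRF, MAFK, MAP2K3, MAPK14 and NAB2 were named outside this rule, after their values were seen. A planned comparison of protein sequences was not run.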

Additional observations from a re-analysis of the deposited data

Results flagged for a closer look

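For 3 genes the 2 pairs of one contrast lay on opposite sides of 0 with at least 1 of them past a fold of 1.3 or 0.7. Each value rests on 1 library per condition, and the difference was not tested. JUN was at a log2 fold change of 0.52 with kahweol in siCTGF cells and at -0.11 in siControl cells. For siCTGF against siControl, JUN was at 0.38 with kahweol and at -0.25 without it. JUNB, higher with kahweol in both siRNA backgrounds, was at 0.51 for siCTGF against siControl with kahweol and at -0.26 without it. JUND was at 0.14 with kahweol in siCTGF cells and at -0.67 in siControl cells. The counting interval of the siCTGF value included 0 (-0.015 to 0.29), and the opposite sign was lost with log2(TPM + 0.1) (-0.12) and with total counts (-0.016). The JUND value for siCTGF against siControl was 0.53 with kahweol and -0.28 without it. EGR1 (-0.40 with kahweol and 0.34 without it) and FOSL2 (0.15 and -0.14) also had opposite signs for siCTGF against siControl, with both values within these fold marks.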

How the results depend on the processing

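The kahweol calls on FOS, FOSB, FOSL1, FOSL2, JUNB and EGR1 held under all 6 alternatives of the fit, and the 0 calls on the 8 genes with siCTGF did too. The siCTGF counts over all genes (11 higher, 10 lower) were 68 and 60 with DESeq2, 32 and 28 with limma-voom, 35 and 40 with DESeq2 size factors, 23 and 27 at a mean count of at least 50, and 0 and 0 with no covariate (25 and 22 at an unadjusted p under 0.05). The siCTGF value of FOSL2 (0.0066, not called) turned to -0.0030 with limma-voom, -0.011 with no covariate and -0.0063 with no filter. The cause was not tested.

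Fold counts over all genes moved with scale and filter. Kahweol in siCTGF cells gave 2966 genes over 1.3 with log2(TPM + 0.1), 2263 with log2(TPM + 1) and 7563 with no filter, and 6154 under 0.7 with no filter. In siControl cells it gave 2975 and 2319 over 1.3 on the TPM scales and 7046 under 0.7 with no filter. For siCTGF against siControl with kahweol the counts over and under were 869 and 489 with log2(TPM + 1), 5323 and 3083 with no filter, and 1329 and 596 at a mean count of at least 50. Without kahweol they were 571 and 597, 3740 and 3871, and 822 and 635 (1598 and 1493 as reported). Of the 8 genes, 3 instead of 5 exceeded 1.3 with kahweol in siControl cells on both TPM scales, and 1 instead of 2 was under 0.7 with DESeq2 size factors. For siCTGF against siControl with kahweol 3 instead of 5 exceeded 1.3 with DESeq2 size factors, total counts, both TPM scales and no filter, and without kahweol 0 instead of 1 on both TPM scales. Under the higher filter 13684 genes were tested instead of 16599. The cause of these moves was not tested. JUND with kahweol in siCTGF cells turned to -0.016 with total counts, and FOSL1 for siCTGF against siControl with kahweol to -0.035 with log2(TPM + 0.1). FOSB and EGR1, the members of lowest count, have the widest counting intervals. No library could be left out, since each condition has 1. No paired analysis was possible because no condition has replicates to pair by number, and the fits already compare within each level of the other factor.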
